A study of Mus musculus with 2 samples.

Results

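The acetylcholine receptor genes of the mouse cortex, together with a receptor-binding modulator and the enzyme that ends the signal, were followed in 10 genes: the muscarinic receptors Chrm1, Chrm2, Chrm3 and Chrm4, the nicotinic subunits Chrna4, Chrna5, Chrna7 and Chrnb2, the modulator Lynx1 and the acetylcholinesterase gene Ache. The genes were taken by symbol, and all 10 were found among the 55536 genes measured, with 36 annotated transcripts between them. Total RNA depleted of ribosomal RNA, with ERCC spike-ins and from 300 ng per library, was sequenced from left cerebral cortex taken at 2 months of age from what the labels number as 2 separate males, called replicate 1 and replicate 2. The labels file both tissue samples under 1 donor record, so that 2 animals are assumed here, and an SD over them would cover only the spread between samples if that record stands for 1 mouse. Both animals were B6CASTF1/J hybrids of C57BL/6J and CAST/EiJ, so that each cell carries 1 genome copy that differs from the reference. They form 1 group with no treatment, genotype contrast or control, so the values describe levels in this tissue and the difference between these animals.

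Acetylcholine reaches the cortex mainly through axons of basal forebrain neurons, whose cell bodies, and hence most of whose mRNA, lie outside it. It acts there on muscarinic receptors, which signal through G proteins, and on nicotinic receptors, which are cation channels built from subunits. Chrm1 and Chrm3 couple to Gq-type proteins and phospholipase C, while Chrm2 and Chrm4 couple to Gi/o-type proteins. Subunits from Chrna4 and Chrnb2 assemble into the high-affinity nicotinic receptor, which Chrna5 can join as an accessory subunit, and Chrna7 forms channels of its own. Lynx1 is a membrane-anchored Ly6 protein that binds nicotinic receptors and lowers their response, and it is known as a brake on plasticity in the adult visual cortex.

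The authors deposited 2 sets of estimates per library: gene and transcript tables from alignments to the transcriptome, called the first tables and used unless stated, and a transcript table made from the reads directly, called the other quantification. Depth was 32866391 and 32032103 expected counts over genes in replicates 1 and 2. Levels are given in TPM, which is transcript abundance per length scaled to a sum of 1000000. The 6 markers of cortical excitatory neurons summed to 2630 and 2718 TPM in replicates 1 and 2, and all 6 were at 1 TPM or more. So were all 10 striatal and all 5 thalamus markers, so detection alone did not set the cortical markers apart. Sums over the marker lists differed between the libraries for striatal neurons (366 and 208 TPM), deep cortical layers (163 and 144), thalamus (40.9 and 34.2), oligodendrocytes (774 and 626) and choroid plexus (11.1 and 93.2, of which Ttr alone gave 8.58 and 89.2). All 10 striatal, all 9 deep-layer and all 6 oligodendrocyte markers were lower in replicate 2 by counts scaled between libraries, or 10, 4 and 1 of them when the spike-ins set the scale, and the part of these tissue differences in the results below was not tested.

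All 10 genes were detected, at 1 TPM or more in both animals. Their summed level was 303 TPM in replicate 1 and 289.7 in replicate 2, or 296 ± 9.41 (SD, n = 2). Lynx1 alone made up 37.6% and 36.4% of that sum. The order of mean levels was Lynx1, Chrm1, Ache, Chrm3, Chrm4, Chrna4, Chrnb2, Chrna7, Chrm2 and Chrna5. Each gene was above its next neighbour in that order in every pairing of the animals, except Ache and Chrm3, whose values overlapped.

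**Figure D1:**
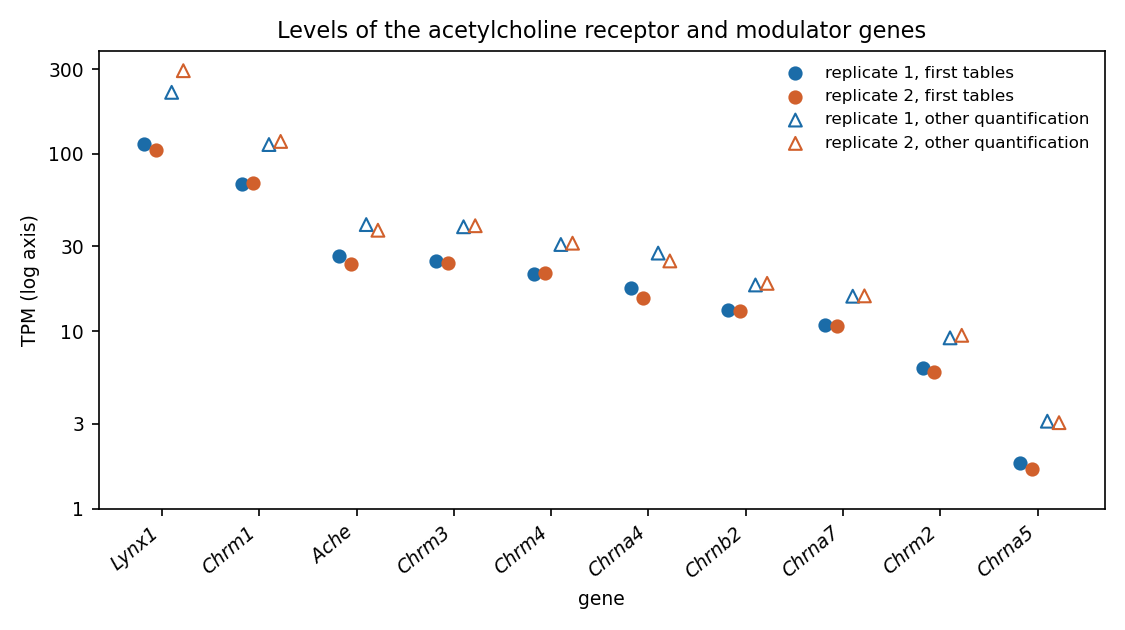
Level of each gene in TPM (log axis) in both animals, from the first tables (filled circles) and from the other quantification (open triangles). The animals lie close together for most genes, the span runs from Lynx1 at 113.88 and 105.51 TPM to Chrna5 at 1.81 and 1.66, and the triangles lie above the circles throughout.

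Among the muscarinic receptors, Chrm1 (ENSMUSG00000032773.9, chromosome 19, 8663789 to 8683587, build mm10) was the most abundant, at 67.2 TPM in replicate 1 and 68.5 in replicate 2. Only 7.3% and 7.01% of the 22028 protein-coding genes were higher. Chrm3 (ENSMUSG00000046159.16, chromosome 13, 9875486 to 10360847) was at 24.9 and 24.3 TPM. Chrm1 was therefore 2.76 ± 0.0887 times as abundant as Chrm3, which is also Gq-coupled (SD, n = 2). The Gi/o-coupled receptor Chrm4 (ENSMUSG00000040495.4, chromosome 2, 91927249 to 91928688) was at 21 and 21.2 TPM. Chrm2 (ENSMUSG00000045613.9, chromosome 6, 36388084 to 36528414) was the lowest of the 4, at 6.19 and 5.91 TPM. Within each animal the values kept the same order, and Chrm4 was 3.49 ± 0.135 times as abundant as Chrm2.

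Over all 5 muscarinic genes the summed level was 120.61 TPM in replicate 1 and 120.63 in replicate 2. Chrm1 held 56.2 ± 0.785% of it, Chrm3 20.4 ± 0.372%, Chrm4 17.5 ± 0.103%, Chrm2 5.02 ± 0.165% and Chrm5 0.871 ± 0.352% (SD, n = 2). The Gq-coupled pair Chrm1 and Chrm3 was 3.39 and 3.43 times the Gi/o-coupled pair Chrm2 and Chrm4 in the respective animals. Chrm5, the remaining Gq-coupled receptor, was at 1.35 and 0.75 TPM and so missed 1 TPM in replicate 2.

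The muscarinic levels rested on gene models of different extent. Chrm4 has 1 annotated transcript, Chrm4-201, a single exon of 1440 bases that starts at the start codon and ends at the stop codon, with no untranslated bases. RefSeq places the start of Chrm4 5060 bases before this model (build GRCm38.p6), so reads from the untranslated exons were outside what was counted for it. The Chrm4 values therefore rested on the 613 and 607 counts in the reading frame. Chrm3-201 is likewise a bare reading frame of 1770 bases in 1 exon, beside the longer Chrm3-202 of 4336 bases and 5 exons. The ends of both models, read from the GENCODE M21 transcripts, are shown with start and stop codons in capitals.
Chrm4-201, first 30 bases: ATGgcgaacttcacacctgtcaatggcagc
Chrm4-201, last 30 bases: cagtatcggaacatcggcacagccaggTAG
Chrm3-201, first 30 bases: ATGaccttgcacagtaacagtacaacctcg
Chrm3-201, last 30 bases: cacaagcgagtgcctgagcaggccttgTAG

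Chrm3-202 led Chrm3 with 79.7% and 78.7% of the gene's TPM, and Chrm3-201 was given 16.5% and 13.8%. Every base of the reading frame is shared by these forms, and the deposited posterior SD of the Chrm3-201 count was 37 and 33.2 against estimates of 149.87 and 119.47. The split between them is accordingly less certain than the gene's total, for which the deposited posterior SD was 0 in both libraries, as it was for all 10 genes. In Chrm1, 2 transcripts with the same coding frame of 1380 bases divided the counts. Chrm1-201, of 4159 bases, held 69.4% and 67.4% of the TPM. Chrm1-202, of 6271 bases and with the longer 3′ end, held 29.5% and 31.1%. The third model, the incomplete Chrm1-203, was at 1.07% and 1.53% in the first tables but at 16.1% and 16.7% in the other quantification. Chrm2-202 held 100% and 95.9% of the Chrm2 TPM.

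Among the nicotinic subunits, Chrna4 (ENSMUSG00000027577.14, chromosome 2, 181018380 to 181043546) was the most abundant, at 17.6 TPM in replicate 1 and 15.4 in replicate 2. Its partner Chrnb2 (ENSMUSG00000027950.7, chromosome 3, 89746195 to 89764632) was at 13.1 and 12.9 TPM. Transcripts of the pair were thus within a ratio of 1.35 and 1.19 of each other, Chrna4 being the higher in both animals. Chrna7 (ENSMUSG00000030525.8, chromosome 7, 63098692 to 63212569) followed at 10.9 and 10.6 TPM. The accessory subunit Chrna5 (ENSMUSG00000035594.10, chromosome 9, 54980880 to 55007779) was at 1.81 and 1.66 TPM, on 77 and 71 counts. Chrnb2 exceeded it 7.51 ± 0.398 times and Chrna4 9.49 ± 0.329 times (SD, n = 2). Depth was least for Chrna5, and its values carry the widest counting error of the 10.

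These 4 subunits held 94.2% and 94.4% of the TPM summed over the 16 nicotinic genes of the mouse (46 and 43 TPM). The other 12 subunits were all below 1 TPM in both libraries in the first tables, while the other quantification put Chrnb3 at 1.7 and 1.75 TPM and Chrna10 at 1.25 and 0.635. In the first tables Chrnb3 was highest among them at 0.85 and 0.86 TPM, followed by Chrnb1 at 0.63 and 0.6. Chrna3 and Chrnb4, which lie beside Chrna5 in 1 gene cluster and form the ganglionic receptor with it, were at 0.23 and 0.42 TPM and at 0.04 and 0.03 TPM. The muscle subunits Chrnd and Chrng had no count in either library, which allows up to 0.0913 and 0.0937 CPM by counting error alone. The other quantification lists Chrnd at 0.07 and 0.142 TPM, values that are per length and cannot be set against CPM, which has no length term. The muscarinic genes summed to 2.62 and 2.81 times the nicotinic genes, a ratio of receptor genes to channel subunits and not of assembled receptors.

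**Figure D2:**
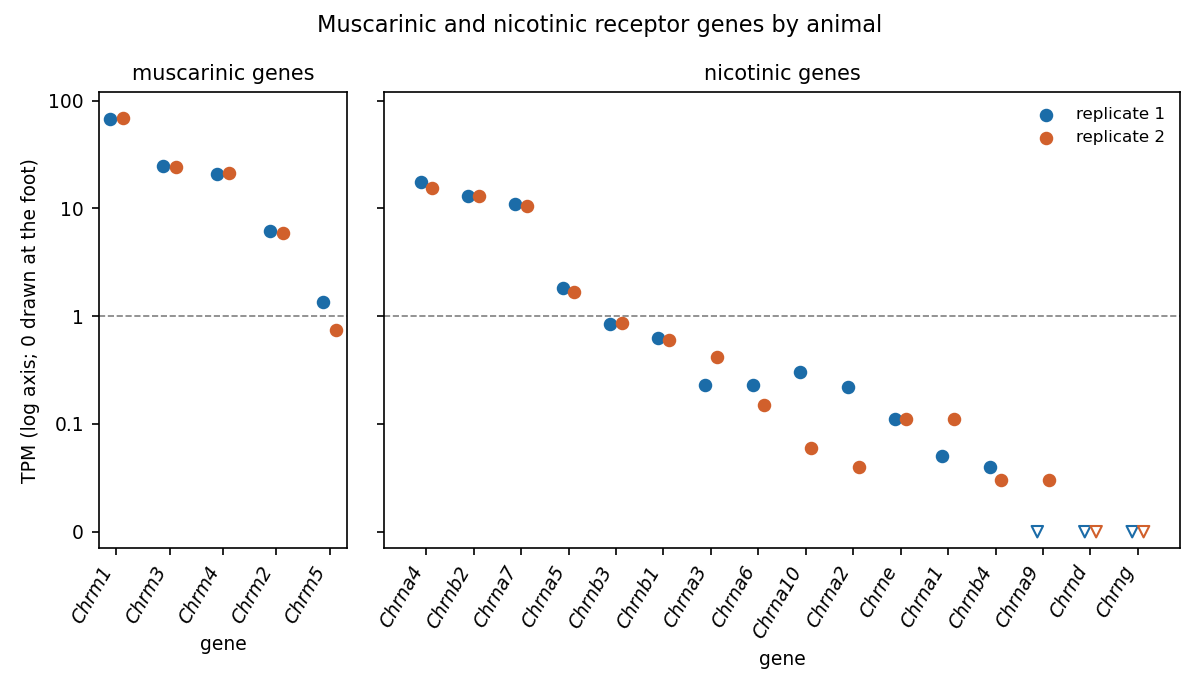
Levels in TPM (log axis, values of 0 drawn as open triangles at the foot) of the 5 muscarinic and 16 nicotinic genes in both animals, with a dashed line at 1 TPM. Apart from Chrm5, at 1.35 and 0.75 TPM, the genes above the line are the 8 receptor members, and Chrnd and Chrng lie at 0 in both animals.

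Chrna4 transcripts differ in the end of the protein they encode. Chrna4-201, of 4565 bases, carries a frame of 1887 bases, and Chrna4-202, of 2071 bases, skips to a further exon and carries 1923. Chrna4-201 held 83.6% of the Chrna4 TPM in replicate 1 and 88.2% in replicate 2, and 94.9% and 98.7% of its counts. Chrna4-202 was estimated at 60.71 and 0 counts with posterior SDs of 25.8 and 15, and at 139 and 61.5 counts in the other quantification. The coding ends are printed to show what separates the forms, with the last 30 bases of the shared exon in lower case and the bases particular to each form, stop codon included, in capitals.
Chrna4-201: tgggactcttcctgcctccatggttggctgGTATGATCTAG
Chrna4-202: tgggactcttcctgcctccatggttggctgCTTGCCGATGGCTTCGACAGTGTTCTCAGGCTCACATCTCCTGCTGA
Chrna4-202 had the lower estimate in replicate 2 in both quantifications and was a minor form in each library. Chrna4-205, an incomplete model of 519 bases, ends at 181018381, beside the end of Chrna4-202 at 181018380. It was given 7.35 and 14.13 counts, or 4.55% and 10.2% of the TPM, and 6.4 and 7.05 counts in the other quantification. The estimates of Chrna4-202 alone therefore do not give the use of that end.

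The leading form of Chrna5 was not settled: by TPM in the first tables it was Chrna5-202 in replicate 1 (55.2%) and Chrna5-204 in replicate 2 (51.8%). There Chrna5-202, with the frame of 1401 bases, was given 35.48 and 28.05 counts, and Chrna5-204, which has 3 exons in place of 6 and a frame of 1089 bases, 41.52 and 42.95. Chrna5-201, which begins at the upstream start site, was given 0 counts in both animals with posterior SDs of 10 and 8.11. In the other quantification Chrna5-201 was given 37 counts in replicate 1 and 0 in replicate 2, and Chrna5-202 had 0.0201 and 24.2. Chrna5-204 was the form on which both quantifications placed the majority of counts, at 53.9% and 60.5% in the first tables and 62.2% and 74.7% in the other. The models of Chrna5-204 and Chrna5-202 begin at 54981466 and 54981533, near the downstream start site at 54981488, and that of Chrna5-201 at 54980880. In both animals and both quantifications most counts were thus placed on models that begin near the downstream start. Whether Chrna5-201, with the upstream start, was used as well could not be settled at this depth.

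The 2 start sites differ in sequence, and the 250 bases before each are printed for that comparison, from RefSeq (GRCm38.p6, plus strand, chr9:54980630-54980879 for the upstream site and chr9:54981238-54981487 for the downstream site), with every CG dinucleotide in capitals.
Chrna5 upstream start: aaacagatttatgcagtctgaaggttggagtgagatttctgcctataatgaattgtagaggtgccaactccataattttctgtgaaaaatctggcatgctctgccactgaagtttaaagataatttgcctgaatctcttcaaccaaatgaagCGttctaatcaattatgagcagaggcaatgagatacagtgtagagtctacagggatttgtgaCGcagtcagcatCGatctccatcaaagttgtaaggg
Chrna5 downstream start: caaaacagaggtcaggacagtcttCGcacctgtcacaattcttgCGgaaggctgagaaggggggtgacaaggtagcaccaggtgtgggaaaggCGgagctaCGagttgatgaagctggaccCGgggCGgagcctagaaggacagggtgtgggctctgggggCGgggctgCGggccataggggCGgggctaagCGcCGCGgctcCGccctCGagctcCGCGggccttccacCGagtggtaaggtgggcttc
The first stretch holds 3 CG dinucleotides and the second 17. Over the full window of 300 bases (250 before and 50 after a start), 38% of the 32851 mouse promoters in the RefSeq table held fewer CG than the upstream window of Chrna5 and 81.6% fewer than the downstream one. Of the 9 windows found for 8 of the 10 genes, 6 were CpG-rich, defined as at least 50% G and C and an observed-to-expected CG ratio of at least 0.6, against 33.5% of all windows. The 6 are those of Chrm2, Chrm4, Chrna4, Chrna7, Ache and the downstream start of Chrna5. This is a description of sequence with no test, and says nothing of which start was used.

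For the remaining subunits 1 form held nearly all of the signal. Chrnb2-201 had 99.8% and 98.1% of the Chrnb2 TPM and Chrna7-201 had 97.2% and 96.3% of the Chrna7 TPM. The 3′ end of Chrnb2 overlaps exons of Adar on the opposite strand, a gene at 61.5 and 61.7 TPM, and the sources used here do not give whether strand was used in counting, so reads in that stretch may belong to either gene.

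The nicotinic modulator Lynx1 (ENSMUSG00000022594.14, chromosome 15, 74747852 to 74753046) was at 114 TPM in replicate 1 and 106 in replicate 2, which placed it 8.71 and 8.16 times above Chrnb2. Only 3.64% and 3.9% of protein-coding genes were higher. Lynx1-201, of 4023 bases, held 96% and 98.3% of the Lynx1 TPM. The other quantification gave the gene 222 and 294 TPM, so that the higher animal was replicate 2 there. Behind that turn lies Lynx1-202, an incomplete model of 436 bases, which the other quantification gave 117 and 284 counts but 55.1 and 132 TPM, since TPM divides by length. Over transcripts of at least 1000 bases the other quantification gave Lynx1 164 and 159 TPM, higher in replicate 1 as in the first tables.

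Other Ly6 proteins and receptor chaperones were present at a range of levels. Of 10 such genes 7 were detected. Ly6h, a Ly6 protein that binds nicotinic receptors, was at 173 and 144 TPM and Ly6e at 150.2 and 149 TPM. Lypd1, another receptor-binding Ly6 gene, was at 52.4 and 40.4 TPM, Lypd6 at 9.24 and 8.61, and Lypd6b at 3.88 and 3.27. The chaperones of nicotinic receptor assembly Ric3 and Tmem35a were at 29.6 and 29.3 TPM and at 31 and 29.1 TPM. Slurp1 and Slurp2, secreted relatives of Lynx1, had no count in either library. Lypd1, Lypd6b and Ly6h were lower in replicate 2 beyond counting error, as were 11.6% of all genes tested, and no gene of the list was higher beyond it. With spike-in scaling none was lower beyond counting error and 5 of 7 were higher. Under that scaling 12323 of all 18490 genes tested were beyond counting error in either direction, with a median log2 ratio of 0.32.

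Ache (ENSMUSG00000023328.14, chromosome 5, 137287519 to 137294466), which breaks down acetylcholine at the synapse, was at 26.5 TPM in replicate 1 and 23.8 in replicate 2. It stood 19.5 and 19.8 times above Bche, the related butyrylcholinesterase gene, which was at 1.36 and 1.2 TPM. In the other quantification that ratio was 25.3 in replicate 1 and 16.5 in replicate 2, with Bche at 1.58 and 2.24 TPM. Prima1, which anchors the enzyme in neuronal membranes, was at 2.29 and 1.86 TPM, and Colq, which anchors it at the muscle endplate, was at 0.79 in both animals. The enzyme's transcripts were thus far more abundant than those of either anchor.

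Of 9 annotated Ache transcripts, 3 held at least 10% of the gene's TPM in both animals. Ache-201 and Ache-202 share a coding frame of 1842 bases and differ by 3 bases at the start of exon 2 and by a few at their ends. Their division was uncertain, since the first tables gave Ache-202 280.41 and 152.96 counts with posterior SDs of 78.9 and 68.3, while the other quantification gave it 0.0437 and 0.02. Their sum does not depend on that division. It was 998 counts in replicate 1 and 779 in replicate 2, a log2 ratio of -0.33 (95% counting interval -0.46 to -0.19), and in the other quantification 964 and 759, at -0.37 (-0.51 to -0.23). Both estimates put the coding forms lower in replicate 2, but spike-in scaling put them level, at -0.0074.

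Ache-208, a transcript of 3687 bases annotated with a retained intron and no coding frame, was higher in replicate 2 in the first tables. It had 342 counts in replicate 1 and 412 in replicate 2, a log2 ratio of 0.30 (0.09 to 0.51), or 0.62 with spike-in scaling. The other quantification gave 452 and 512 counts, at 0.15 (-0.03 to 0.34), an interval that includes 0. Per coding-form count there were 0.343 and 0.529 Ache-208 counts in the respective animals, and 0.469 and 0.675 in the other quantification. This change of balance needs no scaling between libraries. Its log2 odds ratio was 0.63 (95% counting interval 0.37 to 0.88) in the first tables and 0.52 (0.29 to 0.76) in the other. How far the gene's total differed beside its coding forms did depend on the scaling. Without the spike-ins the total, at -0.13, differed less between the animals than the coding forms, at -0.33. With spike-in scaling the total was at 0.19 and the coding forms were at -0.0074. The lincRNA Gm42456, at 1.12 and 0.65 TPM, overlaps the 5′ exons of Ache on the opposite strand.

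**Figure D3:**
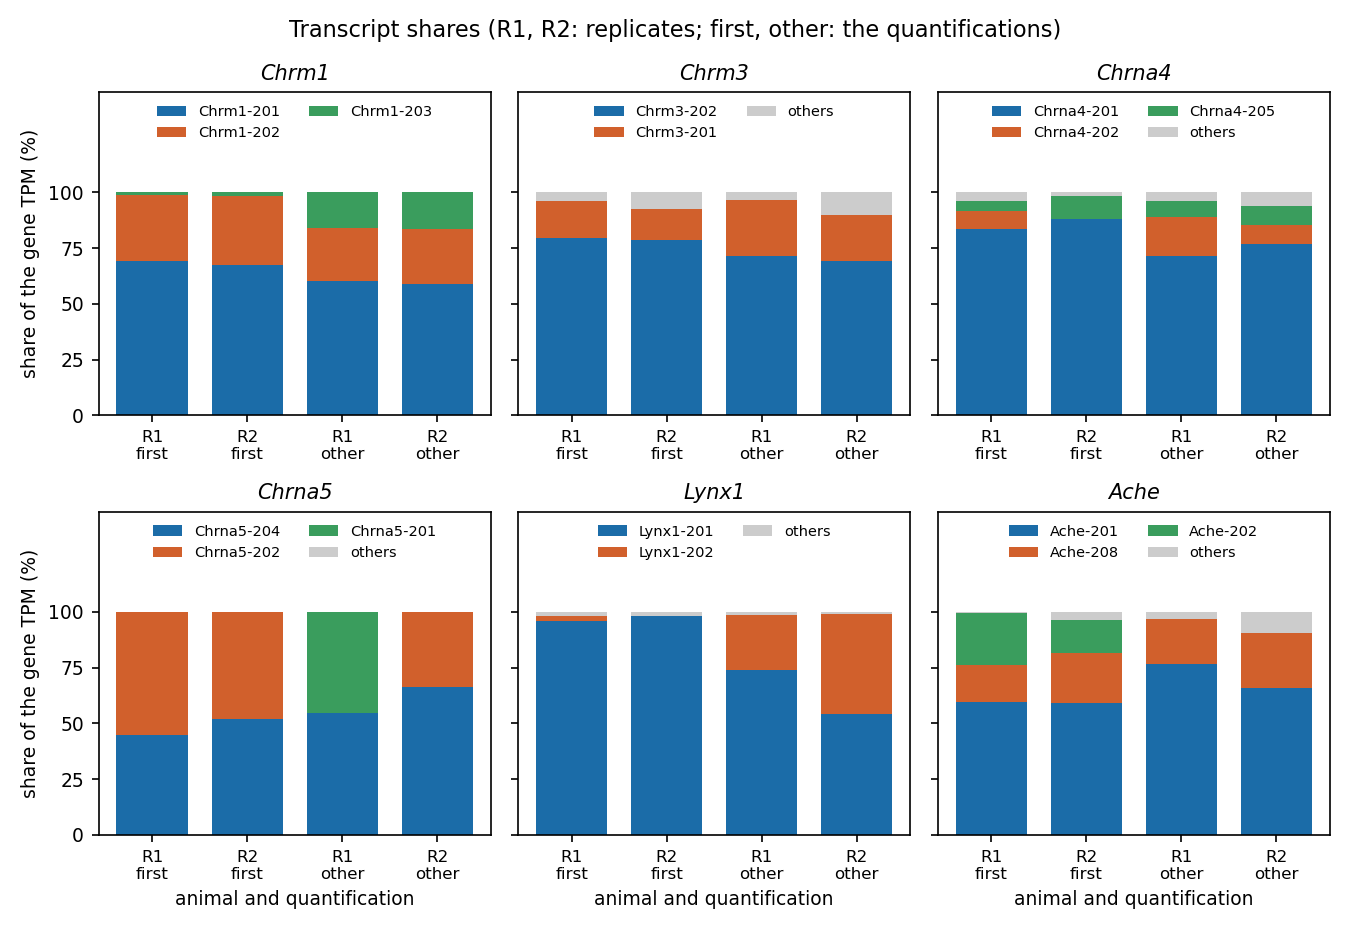
Share of the gene's TPM (%) held by each transcript of 6 genes, as stacked bars for replicate 1 (R1) and replicate 2 (R2) in the first tables and in the other quantification; grey is the sum of transcripts under 10% in all 4 columns. Chrna5 changes its leading form between columns, and the Lynx1-202 part appears mainly in the other quantification, at 24.8% and 45%.

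Between the animals the levels of the 10 genes differed little. With 1 animal against 1 animal there is no p-value, and intervals cover counting error only, so an interval that excludes 0 compares these libraries and not a condition. No member differed 2-fold or more, against 1.8% of the 18490 genes tested. The log2 ratios of replicate 2 over replicate 1, from TMM-scaled counts, ran from -0.17 to 0.04. Their median was -0.06, against 0.00035 over all genes tested, and 8 of 10 were below 0, against 49.9% of all genes, but with spike-in scaling all 10 were above 0. That scaling moved the median of all genes to 0.32 and that of the members to 0.26. In bulk tissue fewer cells of a type and less RNA per cell cannot be told apart.

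Counting error was exceeded by 3 of the 10 genes, or 30%, against 22.6% of all genes, and all 3 were lower in replicate 2, as were 11.6% of all genes. Chrna4, with 1507 and 1311 counts, differed most, at a log2 ratio of -0.17 (95% interval -0.28 to -0.06). Ache, with 1341 and 1197 counts, was at -0.13 (-0.25 to -0.02), and Lynx1, with 9388 and 8719 counts, at -0.08 (-0.12 to -0.03). Under spike-in scaling these same genes were at 0.15, 0.19 and 0.24. The median absolute log2 ratio was 0.06 for the members, 0.11 for all 18490 genes tested, and 0.08 for the 12817 genes that averaged 100 counts or more, as every member but Chrna5 did.

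For the other 7 genes the interval included 0. Chrm1, on 6798 and 6834 counts, was at 0.04 (-0.01 to 0.09), so a difference above 0.09 on the log2 scale lay outside its counting error. Chrm3, on 2031 and 1924 counts, was at -0.05 (-0.14 to 0.04), and Chrnb2, on 1792 and 1737, at -0.01 (-0.11 to 0.08). These well-counted genes were nearly level between the animals by TMM scaling. With spike-in scaling Chrm1, Chrm3 and Chrnb2 were at 0.358, 0.272 and 0.305, with intervals above 0. Chrm2, on 752 and 679 counts, was at -0.12 (-0.27 to 0.04), Chrm4 at 0.02 (-0.15 to 0.18) and Chrna7, on 473 and 455 counts, at -0.02 (-0.21 to 0.16). For Chrna5 the interval ran from -0.57 to 0.40 around -0.08, so a moderate difference was not detectable at its depth.

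The genes that carry the muscarinic signal onward were all present, with 10 of 10 effector genes detected. The Gq-type subunits Gnaq and Gna11 were at 77.6 and 75.9 TPM and at 48.3 and 48.5 TPM. The Gi/o-type subunits Gnao1, Gnai2 and Gnai1 were at 319 and 299.95 TPM, 92.4 and 88.6 TPM, and 78.3 and 74 TPM. The phospholipases Plcb1 and Plcb4 were at 82 and 80.9 TPM and at 29.2 and 36.1 TPM. Kcnq3 and Kcnq5, subunits of the M-type potassium channel that muscarinic receptors close, were at 57.3 and 62.1 TPM and at 33.7 and 36 TPM. Gnai1, Gnai2, Gnao1 and Plcb1 were lower in replicate 2 beyond counting error and Kcnq3 higher, all with log2 ratios between -0.08 and 0.07. Of all genes tested, 22.6% were beyond counting error in either direction and 11.6% were lower beyond it. With spike-in scaling all 10 were higher in replicate 2, where the median of all genes was also above 0, at 0.32.

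Genes of the neurons that make acetylcholine had low levels and, in counts, larger ratios between the animals than the receptor genes. Chat, the synthesising enzyme, had 40 counts in replicate 1 and 6 in replicate 2, the vesicular transporter Slc18a3 had 39 and 17, and the choline transporter Slc5a7 had 113 and 39. Their levels were 0.67 and 0.11, 0.77 and 0.34, and 1.02 and 0.61 TPM. All 8 of 8 cholinergic neuron markers were lower in replicate 2, and 7 of them beyond counting error, against 49.9% and 11.6% of all genes tested. The median of their log2 ratios was -1.62 from counts, but -0.37 on log2(TPM + 1) and -1.03 on log2(TPM + 0.1), scales on which low genes move less. With spike-in scaling all 8 were still lower, 5 beyond counting error, with the median at -1.33. The list's sum was 5.37 and 2.32 TPM, and none of the 8 reached 1 TPM in both animals. The 10 striatal markers, also lower in replicate 2, had a median of -1.01. Chrm4, which striatal neurons are known to express strongly, was at 0.02 (-0.15 to 0.18) on the same scale, and at 21 and 21.2 TPM. The level of 1 gene does not show how much striatal tissue a library held. Whether differing amounts of neighbouring tissue entered the dissections was not tested.

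**Figure D4:**
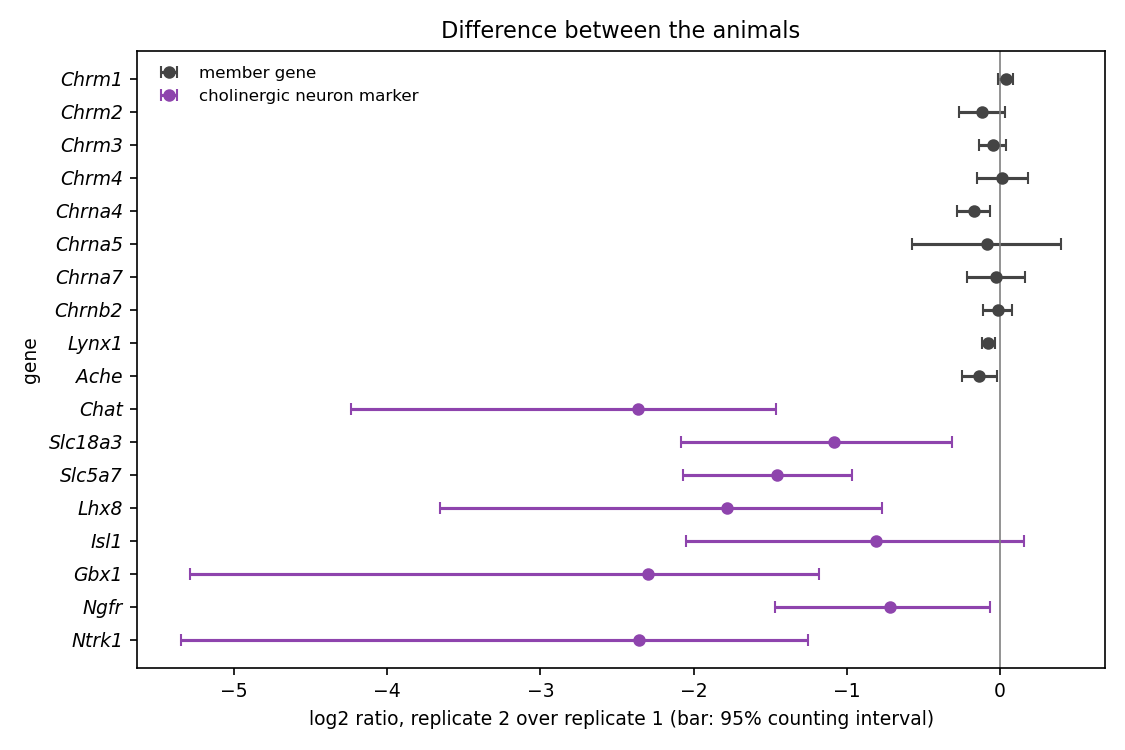
Log2 ratio of replicate 2 over replicate 1 for the 10 member genes (grey) and 8 cholinergic neuron markers (purple), with 95% counting intervals. The members lie between -0.17 and 0.04, and the markers lie below 0 with intervals as wide as their low counts make them.

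The other quantification placed the genes in the same order, apart from Ache and Chrm3, whose values overlapped there too. Its TPM were 1.41 to 1.77 times those of the first tables for 9 genes and 2.35 times for Lynx1. After both were rescaled to protein-coding genes only, the median ratio over the 10 genes was 0.948, with Chrnb2 lowest at 0.858 and Lynx1 highest at 1.43.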

How the data were processed

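Levels are the authors' deposited TPM of the gene tables and the first transcript tables (here the first tables), made per the file headers and the description beside them from transcriptome alignments on build mm10 with GENCODE M21. Expected counts deposited in the same tables are estimates that need not be whole and were rounded. Deposited FPKM entered only as an alternative. The other quantification is a second deposited transcript table of estimated counts and TPM, made directly from 1 reads file. The aligner, programs and use of strand in counting remain not given in the sources used here. Libraries were not pooled, per the file headers. The labels name separate tissue samples. Their counts differed beyond sampling noise (chi-square per degree of freedom 5.94 over 20447 genes), so they are not 1 library deposited in duplicate, which says nothing of whether they came from separate animals.

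Spike-ins and 26248 rows that name no gene (1.79e-05% and 2.49e-05% of counts) were left out. Detection was 1 TPM in both libraries. Log2 ratios came from TMM scaling in edgeR 4.0.16 (R 4.3.3; prior count 2) for genes averaging 10 counts or more, with exact conditional binomial (Clopper-Pearson) 95% intervals (scipy 1.17.1). The intervals cover counting error only, because 1 animal against 1 animal leaves no measure of the spread between animals. With no molecular identifiers, reads can also be copies of 1 molecule, so the intervals may be too narrow even for counting error. A count of 0 allows up to 3 counts. A form of the ratio step, scaled by total counts and with another prior count, was tested on simulated counts. Those counts held only counting error besides the changes put in. That test therefore does not show how the intervals behave where libraries differ beyond sampling noise, as these did.

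The members, the gene lists and the tests were chosen with earlier results of these data known. Named by rule were every member, every gene of the other cholinergic lists at 1 TPM or more or at 0 in both libraries, and for each member the leading transcript of each quantification and any at 10% or more in both animals. The remaining subunits, Colq, the cholinergic neuron markers, Chrna4-202 and Chrna5-201 are named after their values were seen. An item that the rule takes is not reported here. Alternatives were spike-in scaling, size factors from DESeq2 1.42.0, pseudocounts of 1 and 0.1 on TPM, a prior count of 0.5, other count minimums, other TPM denominators and estimates, the second transcript table, and each animal alone. How CAST/EiJ alleles affected mapping was not measured.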

Additional observations from a re-analysis of the deposited data

How the results depend on the processing

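The summed level of the 10 genes, 296 TPM, was 554 in the other quantification, 608 over protein-coding genes only, and 451 in the other quantification with transcripts of at least 1000 bases, the last chosen after seeing the data. The count of members beyond counting error, 3, was 9 under spike-in scaling, where the ratios of Chrna4, Lynx1 and Ache reversed to 0.15, 0.24 and 0.19. Over all genes, 4172 were beyond counting error and 12323 under spike-in scaling. The 333 genes at 2-fold or more were 633 under spike-in scaling, 1958 with no count minimum, 29 at a mean count of at least 100, and 80 on log2(TPM + 1). With the minimum of 100, Chrna5 was not tested and the interval of Chrm1 excluded 0, at 0.05. The median share of the leading transcript over the 9 genes with more than 1, 85.9%, was 71.4% in the other quantification and 95.7% as a share of counts, and 83.6% to 88.2% with either animal left out. The cause was not tested, save that fewer genes enter at a higher minimum. Depth limits Chrna5 most. No paired analysis was possible because there is only 1 group.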
